A study of Mus musculus with 58 samples.

Results

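The basolateral amygdala (BLA) of mice was compared with 10 other brain regions for the methylation of 382 CpGs, each named for 1 of 381 genes. The BLA samples were those with that tissue label, 5 of the 53 samples from 11 regions of C57BL/6 mice and of 58 arrays in all, and the comparison was BLA against the unweighted mean of the other 10 region means. The 10 regions and their sample numbers were thalamus (TH, 5), hypothalamus (HYP, 5), globus pallidus (GP, 5), caudate-putamen (CPU, 6), substantia nigra (SN, 6), the hippocampal CA3 field (4) and dentate gyrus (DG, 5), frontal cortex (FC_WT, 2), Purkinje cells (PC, 4) and granular cell layer (GCL, 6). The mice of BLA and of the other regions except FC_WT were labelled healthy, with no genotype, treatment or age. The FC_WT samples carried the genotype WT and the genetic background C57BL/6. The titles of DG F7 to F9 also begin with WT, like those of FC_WT, although their labels name no genotype.

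A custom-made GoldenGate bead array from Illumina was used, on which bisulphite-converted DNA gives a signal for either form of a CpG. The level reported is beta, which runs from 0 for no methylated signal to 1 for methylated signal only. Precision is limited by how many arrays there were. Since nothing in the labels ties each sample to an animal of its own, p-values cover only the variation among these samples, which may be technical. In DNA from a piece of tissue, a different mixture of cells and a different methylation within cells cannot be told apart.

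The basolateral amygdala is a group of nuclei in the temporal lobe, built mostly of glutamatergic projection neurons with a minority of GABAergic interneurons. It receives sensory input from thalamus and cortex and is known for its part in learned fear and in giving value to a stimulus. Methylation of CpGs near a gene's start is usually low in CpG-rich promoters and higher in CpG-poor ones. The array holds mainly genes of receptors for transmitters, peptides and hormones, many of which act in the amygdala.

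Methylation in BLA exceeded the mean of the other regions at 25 CpGs and was lower at 1, the CpG of Crhr2, a receptor for corticotropin-releasing hormone and the urocortins. The 26 called CpGs were 6.81% of the 382 tested, and the 25 higher ones 6.54% (limma, adjusted p under 0.05). The widest differences were at Grin2c, an NMDA receptor subunit, F2r, the thrombin receptor, and Sstr3, a somatostatin receptor. Most of the 26 also separated BLA from GCL and PC. Without those regions 7 CpGs were called, those of Grm2, F2r, Chd7, Oprk1, Tmhs, Grin2c and Col11a2. At no CpG were the 5 BLA samples all above the other 48 samples.

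The promoters of 6 of the called genes are printed to show how they differ in CpG content, each from 250 bases before to 50 bases after the gene's start, from RefSeq on GRCm38.p6. Grin2c, F2r, Gfap and Bdkrb2 are the called genes with the widest differences that have a single start in the table. Grm2 and Crhr2 were added after their values were seen, because Grm2 had the smallest adjusted p without PC and GCL and Crhr2 was the CpG lower in BLA. Capitals mark each CG. The sources used here do not give where the assayed CpG lies relative to these bases.
Grin2c promoter, chr11:115267194-115267493, minus strand: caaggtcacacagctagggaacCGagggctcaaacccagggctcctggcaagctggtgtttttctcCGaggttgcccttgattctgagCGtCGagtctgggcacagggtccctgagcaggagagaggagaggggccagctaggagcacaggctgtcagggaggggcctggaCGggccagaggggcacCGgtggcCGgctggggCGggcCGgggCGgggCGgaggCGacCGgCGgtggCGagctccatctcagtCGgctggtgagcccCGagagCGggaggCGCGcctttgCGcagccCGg
F2r promoter, chr13:95618417-95618716, minus strand: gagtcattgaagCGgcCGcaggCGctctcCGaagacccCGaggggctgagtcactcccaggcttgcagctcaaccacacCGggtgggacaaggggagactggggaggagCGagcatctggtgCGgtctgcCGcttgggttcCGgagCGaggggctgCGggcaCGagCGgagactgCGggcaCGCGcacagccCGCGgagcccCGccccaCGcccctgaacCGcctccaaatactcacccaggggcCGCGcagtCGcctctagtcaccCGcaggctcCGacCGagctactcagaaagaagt
Grm2 promoter, chr9:106656060-106656359, minus strand: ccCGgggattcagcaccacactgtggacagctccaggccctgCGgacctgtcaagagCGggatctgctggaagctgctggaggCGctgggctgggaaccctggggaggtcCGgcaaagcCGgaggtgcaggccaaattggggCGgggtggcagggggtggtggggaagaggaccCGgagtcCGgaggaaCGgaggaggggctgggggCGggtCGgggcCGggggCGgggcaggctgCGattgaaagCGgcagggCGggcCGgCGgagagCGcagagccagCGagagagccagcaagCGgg
Bdkrb2 promoter, chr12:105562922-105563221, plus strand: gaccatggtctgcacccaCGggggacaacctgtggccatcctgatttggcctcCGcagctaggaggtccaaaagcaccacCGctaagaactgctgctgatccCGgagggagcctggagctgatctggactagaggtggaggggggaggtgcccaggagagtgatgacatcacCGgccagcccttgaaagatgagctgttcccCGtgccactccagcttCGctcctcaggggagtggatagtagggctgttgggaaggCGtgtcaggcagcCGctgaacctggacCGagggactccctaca
Crhr2 promoter, chr6:55132967-55133266, minus strand: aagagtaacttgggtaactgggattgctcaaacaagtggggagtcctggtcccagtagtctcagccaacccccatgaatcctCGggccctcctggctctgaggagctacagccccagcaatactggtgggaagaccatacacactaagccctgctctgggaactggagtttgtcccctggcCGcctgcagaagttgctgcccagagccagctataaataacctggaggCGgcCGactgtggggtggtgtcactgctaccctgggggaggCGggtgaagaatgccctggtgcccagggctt
Gfap promoter, chr11:102897151-102897450, minus strand: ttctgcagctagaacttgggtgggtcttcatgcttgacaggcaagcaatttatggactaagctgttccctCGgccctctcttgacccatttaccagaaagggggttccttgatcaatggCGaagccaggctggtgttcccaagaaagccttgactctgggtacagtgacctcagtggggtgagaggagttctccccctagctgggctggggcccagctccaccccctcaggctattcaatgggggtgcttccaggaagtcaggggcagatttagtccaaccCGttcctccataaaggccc

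These stretches hold 28 CGs in F2r, 22 in Grin2c, 22 in Grm2, 10 in Bdkrb2, 5 in Crhr2 and 3 in Gfap. Over the 230 CpGs whose gene has a single start in the table, BLA methylation was lower where the promoter held more CGs. The median was 21 CGs for the 145 CpGs with a BLA mean beta under 0.2, 8 for the 58 between 0.2 and 0.8, and 6 for the 27 over 0.8. Spearman's rho was -0.41 across these CpGs, which share the 5 BLA samples and are not independent. The 16 called CpGs among them had a median of 15 CGs (2 to 44), against 17 for those not called and 7 over 22862 genes with a single start.

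Methylation in BLA was low at most CpGs. The BLA mean was under 0.2 at 239 CpGs, of which 5 were called, in the range of 0.2 to 0.8 at 102 (18 called) and over 0.8 at 41 (3 called). Mean beta per array was 0.271 to 0.283 in BLA and 0.249 to 0.289 over the 53 samples, and the first quartile of beta was 0.0525 to 0.0660 in BLA and 0.0456 to 0.0995 over all. The BLA samples were close to one another, with correlations of 0.981 to 0.996 (median 0.988, 10 pairs, across the same CpGs). They were as close to SN, with a median of 0.989, and lay at 0.984 with CPU, 0.983 with HYP, TH and GP, 0.981 with CA3, 0.971 with FC_WT, 0.961 with DG, 0.959 with PC and 0.956 with GCL. The best-correlated other sample was another BLA sample only for M1 and M4, which matched each other. F1 matched CPU F2, F4 matched GP F1 and M3 matched CA3 M4. In the other regions, DG F7 to F9, whose titles follow another scheme, and PC F2 and M3, with the largest first quartiles of beta among the PC samples, stood apart from the rest of their groups, and counts that rest on them are given with and without them. The 26 calls became 29 without DG F7 to F9, all 26 kept, and 33 without PC F2 and M3, with 25 kept.

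The BLA label could not be checked with RNA, and few CpGs bear on cell type. In a list drawn up for excitatory neurons of amygdala and cortex, the CpG of Camk2a, a kinase of projection neurons, had a mean beta of 0.0875 ± 0.0108 in BLA (SD, n = 5). Those of Gap43, a growth cone protein, and Reln had 0.367 ± 0.0154 and 0.159 ± 0.0180. Gap43 and Reln are not taken here as specific to such neurons. None of the 3 CpGs of this list was called, and their median log2 difference was 0.07. Of 2 astrocyte markers, Gfap was called and Slc1a3, the glial glutamate transporter GLAST, was not (0.239 against 0.210, adjusted p = 0.164). With 26 of 382 CpGs (6.81%) called over the array, none of 7 oligodendrocyte CpGs was called. Of these 6 had a log2 difference above 0 (median 0.09), such as Gm98 (now Myrf), a myelin transcription factor, at 0.409 against 0.386. Mbp, a myelin protein, was the exception at 0.0560 against 0.0630. The lists of inhibitory neuron, microglial and endothelial markers had 0 CpGs on the array.

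**Figure D1:**
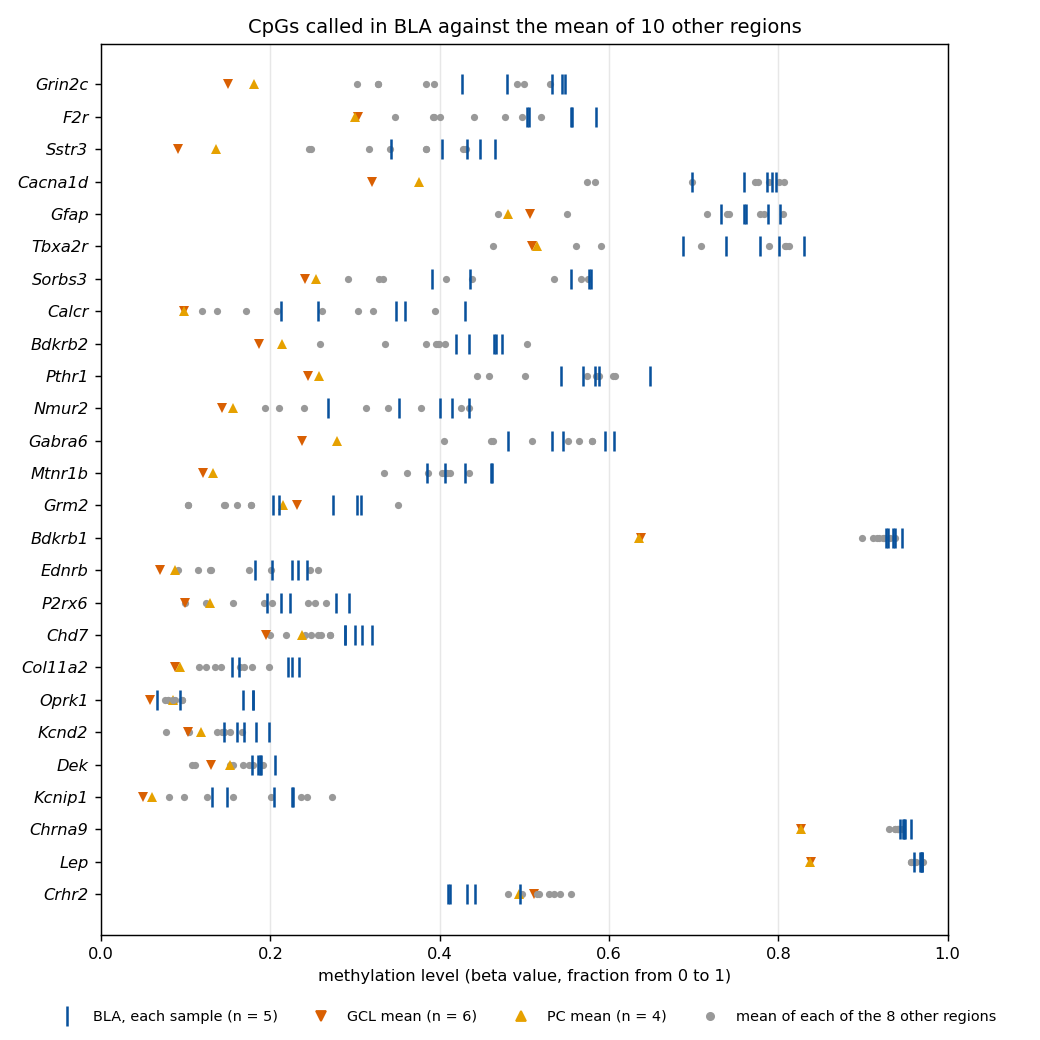
Methylation level (beta value, x axis) at the 26 CpGs called in BLA, one CpG a row, with bars for the 5 BLA samples, triangles for the means of GCL and PC and grey points for the means of the other 8 regions. GCL has the lowest of the 11 region means at 15 rows and PC at 5, and the BLA mean is the highest of the 11 at 6 rows and the lowest at 1.

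Ionotropic glutamate receptors differed at 1 of 18 CpGs, near the share of 26 of 382 (6.81%) over the array. Beta at Grin2c, the NMDA receptor subunit GluN2C, was 0.532 in F1, 0.426 in F4, 0.548 in M1, 0.480 in M3 and 0.544 in M4. All 5 BLA samples lay above every GCL sample (0.115 to 0.195) and every PC sample (0.110 to 0.250), while they overlapped those of CPU (0.412 to 0.610), HYP (0.413 to 0.618), SN (0.449 to 0.543) and, through F4, GP (0.255 to 0.442). Against the 10 regions the mean was 0.506 ± 0.0525 (SD, n = 5) to 0.359, a log2 difference of 0.97 ± 0.18 (SE, adjusted p = 0.000204, limma). The log2 difference is that of beta over 1 minus beta, and so equals 1 where that ratio doubles. BLA ranked second to HYP at this CpG. The other 6 NMDA receptor CpGs were not called, among them Grin2b (0.195 against 0.164, adjusted p = 0.0782), Grin2a (0.337 against 0.314) and Grin2d (0.130 against 0.124), and the median log2 difference of the 7 was 0.12. None of 11 AMPA and kainate receptor CpGs was called (median -0.02). The widest of them, Gria1, had 0.116 in BLA against 0.193 (adjusted p = 0.578).

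Among 7 metabotropic glutamate receptor CpGs, that of Grm2 was called, against 26 of 382 (6.81%) over the array. Grm2 encodes mGluR2, a receptor that inhibits glutamate release from presynaptic endings. Beta in BLA was 0.302 in F1, 0.210 in F4, 0.274 in M1, 0.202 in M3 and 0.307 in M4. F4 and M3 lay below the other BLA samples and within the range of PC (0.187 to 0.241), and these and M1 lay within that of GCL (0.185 to 0.277), but the BLA samples were all above those of HYP (0.125 to 0.154), SN (0.139 to 0.185), GP (0.144 to 0.192), TH (0.146 to 0.201), CA3 (0.115 to 0.180), DG (0.088 to 0.119) and FC_WT (0.099 to 0.107). CPU was higher still, at 0.246 to 0.452. The difference from the 10 regions was 0.74 ± 0.13 on the log2 scale (0.259 against 0.181, adjusted p = 0.000177), and it was 0.86 ± 0.14 without PC and GCL (adjusted p = 0.000130). Grm2 was called in 7 single-region comparisons, the most of any of the 26. The other CpGs of the list, with Grm7 at 0.518 against 0.508, were not called (median of the list 0.06).

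GABA receptors differed at 1 of 18 CpGs, near the share of 26 of 382 (6.81%) over the array. Gabra6, the alpha-6 subunit known for its expression in cerebellar granule cells, had a mean of 0.552 ± 0.0508 (SD, n = 5) in BLA against 0.463 over the 10 regions (adjusted p = 0.0103). Its level was 0.237 in GCL and 0.278 in PC and 0.405 to 0.580 in the other regions, so that BLA lay inside the range of the others. The call was lost without BLA F1 or M4. The other 15 GABA-A receptor CpGs were not called (median of the 16 0.08), and neither were Gabbr1 (0.0937 against 0.0947) or Gabbr2 (0.0505 against 0.106, adjusted p = 0.425) of the GABA-B receptor, with a median of -0.42 over the pair.

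No monoamine receptor CpG was called in BLA, against 26 of 382 CpGs (6.81%) over the array. This held for 10 serotonin receptor CpGs (median log2 difference -0.05), 5 dopamine receptor CpGs (0.07), 9 adrenergic receptor CpGs (0.02) and 4 histamine receptor CpGs (0.00), against 0.03 over all 382. Within them the BLA levels ran from 0.0367 to 0.974. Drd2 stood at 0.0973 ± 0.0107 against 0.0941, Drd1a (now Drd1) at 0.0372 against 0.0397, Htr5a at 0.159 against 0.172 and Adra2c at 0.795 against 0.762. Among 8 acetylcholine receptor CpGs (median 0.00), Chrna9, a nicotinic subunit of inner ear hair cells, was higher in BLA at 0.949 against 0.917 (adjusted p = 0.0191). GCL and PC stood at 0.827 and 0.826 there and the other 8 regions at 0.931 to 0.947, and the call was lost without BLA F1, M1 or M4, and with either rescaling of the arrays. Chrna10, its partner subunit, had 0.298 in BLA against 0.349 (adjusted p = 0.0561).

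Among 58 CpGs of receptors for peptide hormones and neuropeptides, opioids aside, 8 were called, against 26 of 382 (6.81%) over the array, and 0 were called without PC and GCL. In the class B family, with 14 CpGs, 2 were higher and 1 lower (median 0.03). Calcr, the calcitonin receptor, had 0.348 in F1, 0.213 in F4, 0.430 in M1, 0.256 in M3 and 0.358 in M4. The BLA samples thus spanned a wide range (SD 0.0863), and 2 of the 48 other samples lay above it and 23 below. The difference was 0.97 ± 0.22 (0.321 against 0.211, adjusted p = 0.00270), and HYP (0.395) and SN (0.322) were higher than BLA. Pthr1 (now Pth1r), the parathyroid hormone receptor, had 0.587 against 0.486 (adjusted p = 0.00670), with 0.245 in GCL and 0.257 in PC, and was not called without BLA M1 or with quantile normalization.

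Crhr2 was the 1 CpG with lower methylation in BLA. Beta was 0.409 in F1, 0.413 in F4, 0.495 in M1, 0.441 in M3 and 0.433 in M4. Of the other 48 samples 29 lay above the highest BLA sample and 1 below the lowest, and the BLA mean of 0.438 ± 0.0345 (SD, n = 5) was below all 10 region means (0.480 to 0.555). The log2 difference was -0.46 ± 0.15 (adjusted p = 0.0488). Crhr2 was called in no single-region comparison, where the differences from CPU (0.480) and GP (0.555) were -0.24 (95% interval -0.63 to 0.14) and -0.68 (-1.08 to -0.28). Its call was lost in 30 of 53 fits that left out 1 sample, among them those without BLA F1, F4, M3 or M4, and it stood without PC and GCL at an adjusted p of 0.108. It was lost in 7 of 18 other settings, but was called when PC, GCL, FC_WT and DG F7 to F9 were left out together.

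Sstr3 was the called CpG among 8 somatostatin and galanin receptor CpGs (median 0.22), with 0.403, 0.432, 0.466, 0.343 and 0.447 in F1, F4, M1, M3 and M4. The BLA range held the means of CPU (0.428), HYP (0.383), SN (0.430) and TH (0.383), and lay above those of the other 6 regions, which reached from 0.0902 in GCL and 0.136 in PC to 0.341 in FC_WT. Sstr1 (0.355 against 0.276, adjusted p = 0.0679) and Galr3 (0.633 against 0.559, adjusted p = 0.0645) missed the threshold. In the list of 36 other peptide receptor CpGs, 4 were higher in BLA and 0 lower (median 0.07). Bdkrb2, the constitutive bradykinin receptor, had 0.473, 0.420, 0.464, 0.435 and 0.466 in the samples in the same order, against 0.348 (log2 difference 0.68 ± 0.13, adjusted p = 0.000320). Of the other 48 samples 39 were below the lowest of these. Bdkrb1, the inducible bradykinin receptor, was nearly fully methylated at 0.935 ± 0.00725, against 0.637 in GCL and 0.636 in PC and 0.899 to 0.938 elsewhere. Ednrb, the endothelin B receptor, had 0.217 against 0.150 (adjusted p = 0.00319), and Nmur2, a neuromedin U receptor, 0.374 against 0.283 (adjusted p = 0.0112). The call for Bdkrb1 was lost without BLA M4 and that for Nmur2 without BLA F1, M1 or M4.

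The CpG of Oprk1, the kappa opioid receptor for dynorphin, was low in methylation everywhere and highest in BLA. Beta was 0.180 in F1, 0.0931 in F4, 0.179 in M1, 0.0660 in M3 and 0.168 in M4. F1, M1 and M4 were above all 48 other samples, whereas F4 and M3 lay within their range. The mean was 0.137 ± 0.0536 (SD, n = 5) against 0.0822 (log2 difference 0.75 ± 0.17, adjusted p = 0.00242), and the next highest region mean was that of HYP, 0.0954. The SE and p rest on 1 spread shared by all regions and do not measure that within BLA. At this CpG the SD was 0.0536 in BLA and 0.00140 to 0.0316 in the other regions. The 3 other opioid and cannabinoid receptor CpGs were not called (median of the 4 0.09), with Cnr1 at 0.0591 against 0.0583 and Oprd1 at 0.0671 against 0.0708.

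F2r, which encodes PAR1, the receptor that thrombin cleaves, had the smallest adjusted p. Beta was 0.584 in F1, 0.503 in F4, 0.555 in M1, 0.505 in M3 and 0.556 in M4. Of the other 48 samples 1, in CPU, lay above the BLA range and 41 lay below it. The difference was 0.80 ± 0.12 on the log2 scale (0.541 against 0.407, adjusted p = 1.39e-05). CPU was next at 0.520 ± 0.0677 (n = 6), and the BLA to CPU difference of 0.12 had a 95% interval of -0.19 to 0.43. FC_WT (0.497) and SN (0.477) followed. The other protease-activated receptors, F2rl1 (0.0751 against 0.0801), F2rl2 (0.821 against 0.802) and F2rl3 (0.783 against 0.754), were not called (median of the 4 0.07).

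Lipid and nucleotide receptors each gave 1 call, with 26 of 382 CpGs (6.81%) called over the array. Tbxa2r, the thromboxane receptor, was the called CpG among 10 prostanoid and leukotriene receptor CpGs (median 0.14), with 0.767 ± 0.0558 in BLA against 0.657 (adjusted p = 0.0191). BLA ranked below CPU, TH, HYP and SN there. P2rx6, an ATP-gated channel subunit, was the called CpG among 16 purinergic and adenosine receptor CpGs (median 0.15), with 0.240 ± 0.0423 against 0.176 (adjusted p = 0.0284). The P2rx6 call was lost without BLA M1 or M4, and in 10 of 18 other settings. The Tbxa2r call was lost without BLA F1, M1 or M4 and with quantile normalization. Mtnr1b, the melatonin MT2 receptor, which was in no list, had 0.429 against 0.340 (adjusted p = 0.00630), with 0.120 in GCL and 0.133 in PC and 0.334 to 0.434 in the other regions.

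Ion channels were higher in BLA at 3 of 6 CpGs, against 25 of 382 (6.54%) over the array, and 0 of the 6 were called without PC and GCL. All 6 differences were above 0 (median 0.36), as were 222 of 382 over the array (median 0.03). Cacna1d, an L-type calcium channel subunit, had 0.786, 0.759, 0.797, 0.698 and 0.792 in F1, F4, M1, M3 and M4, against 0.649 (adjusted p = 0.0103). At this CpG 5 regions lay above BLA, with 0.320 in GCL and 0.375 in PC and 0.573 to 0.806 in the rest. Kcnd2, the A-type potassium channel Kv4.2, had 0.171 ± 0.0203 against 0.129 (adjusted p = 0.00670) and its BLA mean was the highest of the 11. Kcnip1, a protein that binds Kv4 channels, had 0.187 ± 0.0446 against 0.152 (adjusted p = 0.0366), and 4 regions lay above BLA. The calls for Cacna1d (M1 or M4) and Kcnip1 (F4, M1 or M4) were lost without a single BLA sample.

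Genes outside these receptor families made up the rest. Chd7, a chromatin remodeller, had 0.288, 0.300, 0.320, 0.288 and 0.308 in F1, F4, M1, M3 and M4, and none of the other 48 samples lay above this range and 46 lay below it. The log2 difference was small and even, at 0.46 ± 0.083 (0.301 against 0.239, adjusted p = 0.000177), but it was not called with quantile normalization. Col11a2, a collagen chain, had 0.1996 ± 0.0375 against 0.140 (adjusted p = 0.000393). Gfap, the intermediate filament of astrocytes, had 0.760, 0.761, 0.802, 0.732 and 0.788 against 0.657 (adjusted p = 0.0103), Sorbs3, the adaptor vinexin, 0.507 ± 0.0875 against 0.397 (adjusted p = 0.0155), Dek, a chromatin protein, 0.189 against 0.152 (adjusted p = 0.0155) and Lep, leptin, 0.967 against 0.937 (adjusted p = 0.0270). These last 4 calls were each lost without single BLA samples. Of 4 genes for which this study is known, Tbxa2r and Sorbs3 were called and Spnb4 (now Sptbn4) and F2rl2 were not (median 0.45), a list chosen with results on these samples known. None of 3 CpGs of stress and plasticity genes was called (median -0.02). Nr3c1, the glucocorticoid receptor, stood at 0.151 against 0.156 and at 0.0873 against 0.0897 at its CpGs, and Bdnf at 0.0560 against 0.0568.

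The 5 BLA samples did not contribute evenly to the 25 higher calls. F4 was the lowest of the 5 at 15 of them, M3 at 7 and F1 at 3, and M1 was the highest at 14. These ranks were not counted over all 382 CpGs, so they cannot be read as particular to the calls. Across the whole array, the third quartile of beta was 0.411 in F4 and 0.453 to 0.490 in the other BLA samples. F4 and M3 together held both lowest values at 14 of 25, and at 59 of all 382 CpGs. The count of calls fell from 26 to 13 without M4, 16 without M1 and 19 without F1, and was 27 without F4 and 26 without M3. Calls were kept in all 53 fits that left out a sample at 12 of the 26 CpGs, those of Grin2c, F2r, Sstr3, Calcr, Bdkrb2, Mtnr1b, Grm2, Ednrb, Chd7, Col11a2, Oprk1 and Kcnd2. With quantile normalization the split was 19 higher and 5 lower, with 17 of the 26 shared, and it was 23 higher and 1 lower after median centring of the arrays.

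**Figure D2:**
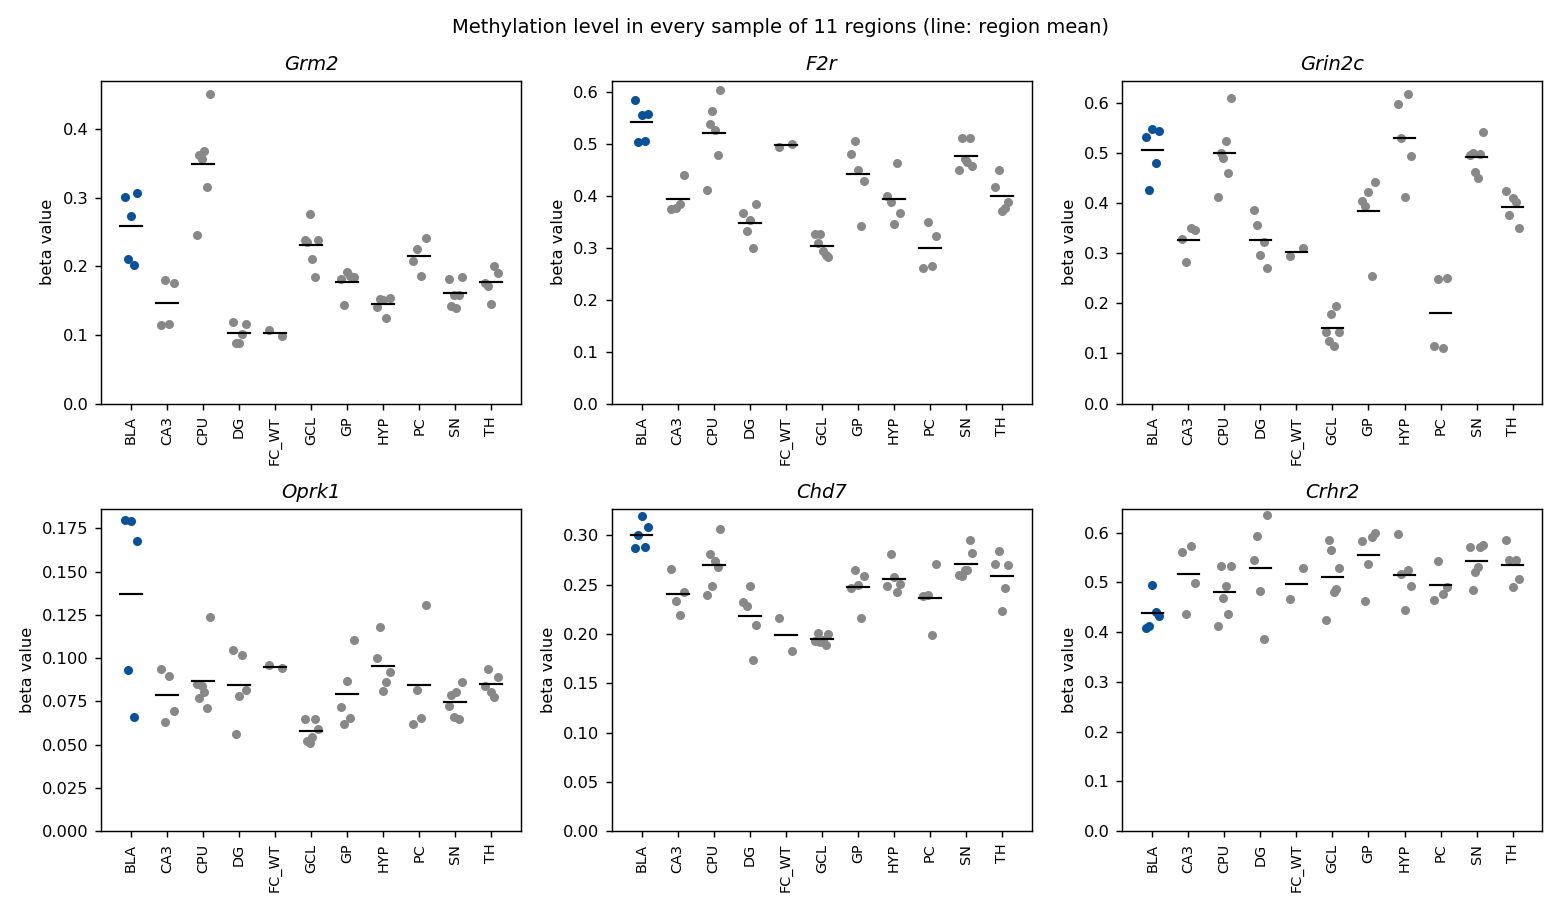
Beta value (y axis, from 0) of every sample in the 11 regions (x axis) at 6 of the called CpGs, with a line at each region mean and BLA in blue. The 5 BLA points of Chd7 lie at 0.288 to 0.320, those of Oprk1 split between 0.0660 to 0.0931 and 0.168 to 0.180, and those of Crhr2 lie at 0.409 to 0.495, mostly below the other regions.

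Leaving GCL and PC out of the mean took the count of calls from 26 to 7, and leaving out FC_WT alone took it to 27. No other pair of whole regions was left out for comparison. Among the 26 called CpGs, BLA differed from GCL at 24, from PC at 23, from DG at 21, from CA3 at 16 and from FC_WT at 13, and from any of CPU, GP, HYP, SN and TH at 4, which were those of F2r, Grm2, Ednrb and Oprk1. All these comparisons share the BLA samples. The 26 were selected by a mean that includes these regions, so the counts describe the calls and do not test them. With PC and GCL left out of the mean, 7 CpGs (1.83%) were called, all higher in BLA, and 37 had an unadjusted p under 0.05. They kept 6 of the 26 and added Tmhs (now Lhfpl5), a protein of hair cells. At Tmhs BLA had 0.735, 0.743, 0.688, 0.740 and 0.734 in F1, F4, M1, M3 and M4, with a log2 difference of 0.50 ± 0.12 (adjusted p = 0.0194) that was 0.31 against all 10 regions (adjusted p = 0.109). The BLA mean of 0.728 was below those of GCL (0.782), PC (0.779) and GP (0.738), and FC_WT was the lowest (0.458, n = 2). The Tmhs call was lost when FC_WT and DG F7 to F9 were left out as well. The differences of the other CpGs were 0.63 ± 0.13 for F2r, 0.41 ± 0.085 for Chd7, 0.69 ± 0.17 for Oprk1, 0.60 ± 0.16 for Grin2c and 0.48 ± 0.13 for Col11a2. At the other end, the Cacna1d difference fell to an adjusted p of 0.681 and that of Bdkrb1 to 0.695.

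**Figure D3:**
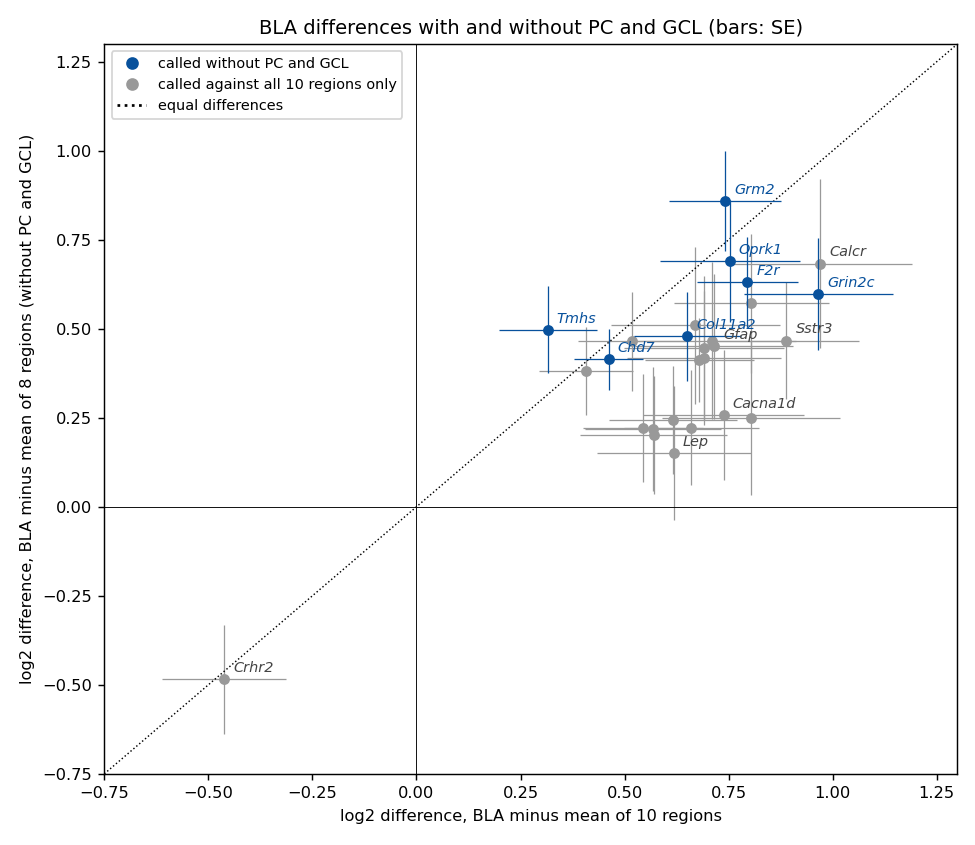
Log2 difference in methylation between BLA and the mean of the other regions, with 10 regions (x axis) and with PC and GCL left out (y axis), for the CpGs called in either, with SE bars. Grm2 and Tmhs lie above the dotted line of equal differences and most other CpGs below it, and Crhr2 lies near it at -0.46.

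Single regions differed from BLA at very different numbers of CpGs. BLA differed from PC at 108 CpGs (28.3%), with 47 higher and 61 lower, from FC_WT at 98 (25.7%), with 94 higher and 4 lower, from DG at 80 (20.9%), with 61 and 19 (11 without DG F7 to F9), and from GCL at 70 (18.3%), with 52 and 18. All FC_WT samples have titles that begin with WT, like those of DG F7 to F9. For FC_WT, region and set of samples therefore cannot be told apart. From CA3 BLA differed at 24 (6.28%), with 23 and 1, and from CPU at 11 (2.88%), with 10 and 1. Fewer CpGs differed from HYP, 4 (1.05%), from TH, 3 (0.785%), and from SN, 2 (0.524%). From GP none did (0%) by limma, although 22 CpGs had an unadjusted p under 0.05, and 5 were called on untransformed beta values and 2 with quantile normalization. The mean absolute difference in beta followed a similar order, from 0.0133 for SN and 0.0143 for GP to 0.0404 for FC_WT and 0.0424 for PC.

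The splits depended on the scaling of the arrays. Over all CpGs, the log2 difference had a median of 0.21 for FC_WT, -0.19 for PC and 0.08 for SN, and within 0.051 of 0 for the other regions. With quantile normalization the splits of higher and lower were 48 and 46 for FC_WT, 43 and 38 for DG, 49 and 46 for GCL, 22 and 8 for CA3, 4 and 1 for CPU and 5 and 5 for HYP. With centring they were 43 and 62 for FC_WT, 53 and 28 for DG, 48 and 30 for GCL, 2 and 0 for CPU, 3 and 1 for HYP and 2 and 1 for SN. For PC the splits were 47 and 54 and 50 and 46. Without PC F2 and M3 the PC count was 53, with 48 higher and 5 lower, and without DG F7 to F9 the DG count was 11, all higher in BLA. The PC count was 49 without PC M3, 68 without PC F2, 60 without BLA F1 and 68 without BLA M4, the FC_WT count 53 or 48 with 1 of its samples, and the CA3 count 14 without CA3 F3 or BLA F1, M1 or M4.

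**Figure D4:**
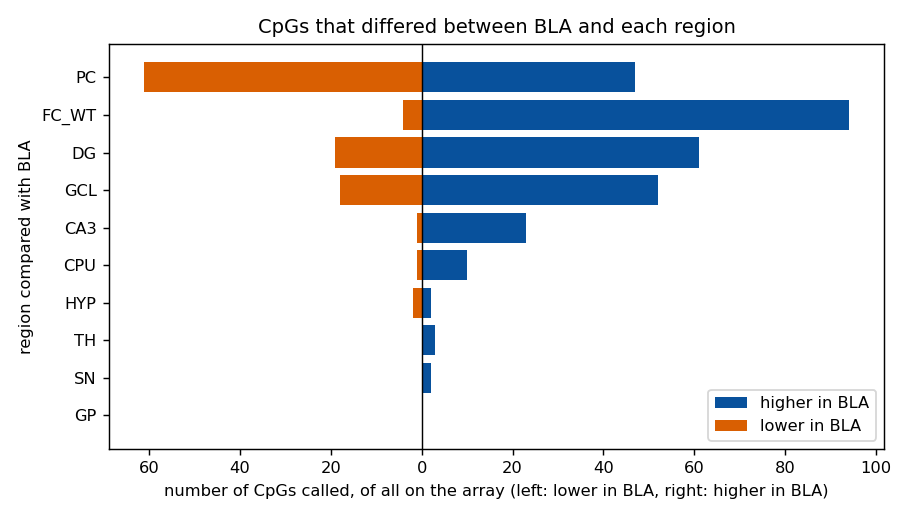
Number of CpGs, of 382, that differed between BLA and each region (adjusted p under 0.05, limma), with those lower in BLA to the left and those higher to the right of 0. PC (108) and FC_WT (98) have the longest bars, FC_WT almost all to the right, and GP has none.

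Against GCL the widest differences were at Cacna1d (0.766 against 0.320), Grin2c (0.506 against 0.150), Pthr1 (0.587 against 0.245) and Sstr3 (0.418 against 0.0902), with log2 differences of 2.14 to 2.87. The same first 3 and Bdkrb1 (0.935 against 0.636) were the widest against PC. Against DG, Tbxa2r (0.767 against 0.463 ± 0.130) and Gfap (0.768 against 0.469 ± 0.133) were higher in BLA, and Adcy9, an adenylyl cyclase (0.124 against 0.410 ± 0.266), and Sctr, the secretin receptor (0.0681 against 0.334 ± 0.231), lower. Adcy9 had 0.243 and 0.106 in DG F3 and M2 and 0.748, 0.333 and 0.619 in DG F7 to F9. Without those 3 samples the Adcy9 and Sctr differences were no longer called (adjusted p = 0.976 and 0.894), while those of Tbxa2r and Gfap were (adjusted p = 0.0192 and 0.0146). Against CA3 the widest were Gfap (0.768 against 0.550), Tbxa2r (0.561 in CA3), Cacna1d (0.573 in CA3) and Calcr (0.137 in CA3). Against FC_WT they were Mas1, an angiotensin (1-7) receptor (0.641 against 0.305), Adra1b (0.898 against 0.623), Tmhs (0.728 against 0.458) and Ide, the insulin-degrading enzyme (0.627 against 0.372).

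BLA and the regions nearest to it differed at few named CpGs. Against CPU, the widest 4 of the 10 CpGs higher in BLA were those of Galr3 (0.633 ± 0.0382 against 0.4996 ± 0.0506, adjusted p = 0.0157), Cysltr2, a leukotriene receptor (0.662 against 0.541, adjusted p = 0.0244), Gabrp, the GABA-A pi subunit (0.728 against 0.617, adjusted p = 0.0424), and Avpr1b, a vasopressin receptor (0.699 against 0.592, adjusted p = 0.0157). Grm2 was lower (0.259 against 0.350, adjusted p = 0.0255). No CPU call was left without CPU F4, 2 were left without BLA M3, 4 without BLA M4 and 6 without CPU F1. Against HYP, F2r (0.541 against 0.393, adjusted p = 0.000456) and Grm2 (0.259 against 0.145, adjusted p = 0.000243) were higher, and Tomt, a methyltransferase of hair cells (0.316 against 0.417, adjusted p = 0.0132), and Pmp22, a protein of peripheral myelin (0.0645 against 0.115, adjusted p = 0.00866), lower. The HYP count was 2 without HYP M1 and 7 without HYP F4.

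Against TH, F2r (0.541 against 0.400, adjusted p = 0.00239) was higher, as were Tmhs (0.728 against 0.636) and Grm2 (0.259 against 0.177), both at an adjusted p of 0.0447. The count fell to 1 in 22 of the 53 fits that left out a sample, BLA F1 and M4 among them, and without DG F7 to F9. Against SN, Grm2 (0.259 against 0.161, adjusted p = 0.00338) and Oprk1 (0.137 against 0.0748, adjusted p = 0.0371) were higher, and neither was called with quantile normalization. The SN count fell to 1 without BLA F1, M1 or M4, without any of SN F1, F2, F4, M1 and M3, or without DG F7 to F9. Against GP, where no CpG passed, the log2 differences were 0.68 for Grm2 (95% interval 0.32 to 1.04), 0.58 for F2r (0.26 to 0.91), 0.39 for Chd7 (0.17 to 0.61) and 0.81 for Oprk1 (0.36 to 1.27), each at an adjusted p of 0.0872. The GP count was 3 without BLA F4, 2 without BLA M3 and 2 without GP M4.

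Spread within BLA was small at most CpGs. The median SD over the 365 autosomal CpGs was 0.0118, within the 0.00859 to 0.0227 of the other regions, and exceeded 0.05 at 21 CpGs and 0.1 at 1. That was the CpG of Gabrr1, a GABA receptor rho subunit, with 0.782, 0.747, 0.784, 0.723 and 0.534 in F1, F4, M1, M3 and M4. Next came Gje1, a connexin (SD 0.0937), with 0.527 in F4 and 0.676 to 0.759 in the others, and the called Sorbs3 and Calcr.

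The sample titles carry F or M codes, whose meaning the labels do not state, and BLA had 2 F-coded and 3 M-coded samples. They differed at 12 CpGs (3.14%), all on the X chromosome and all lower in F. At Gabrq, the GABA-A theta subunit, the F-coded samples had 0.304 and 0.234 and the M-coded ones 0.730, 0.764 and 0.719, a log2 difference of -2.95 ± 0.26 (adjusted p = 3.8e-11). The cell adhesion gene L1cam (0.229 against 0.541), the AMPA receptor subunit Gria3 (0.343 against 0.636), Gabre (0.0617 against 0.310), the orphan receptor Gpr50 (0.301 against 0.535), Htr2c (0.477 against 0.696) and the ubiquitin ligase Pja1 (0.118 against 0.303) followed. Of the 17 X-linked CpGs, 12 were called. So few samples can separate at a small difference, as at Brs3 (0.9185 and 0.9268 against 0.9271 to 0.9371), which was not called. Among autosomal CpGs limma called none, while 5 reached an unadjusted p under 0.05, and none of the 26 CpGs that set BLA apart from the other regions was X-linked.

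**Figure D5:**
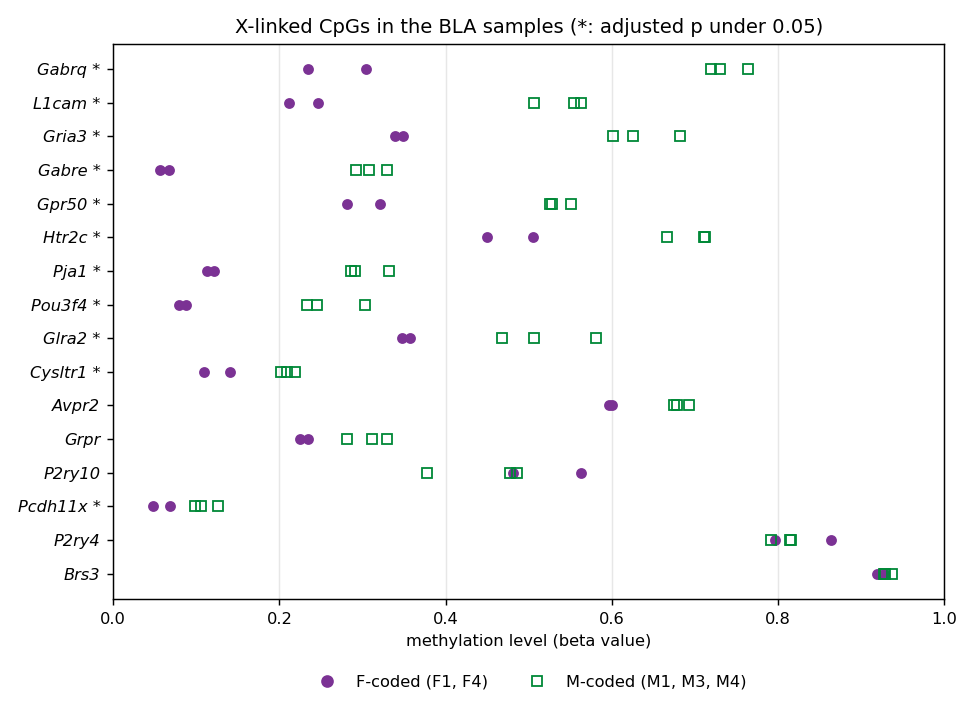
Beta value (x axis) of the 5 BLA samples at X-linked CpGs, with filled circles for the 2 F-coded and open squares for the 3 M-coded samples. At the starred CpGs (adjusted p under 0.05) both circles lie to the left of the squares, from 0.234 and 0.304 against 0.719 to 0.764 at Gabrq.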

How the data were processed

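Per the labels' protocols, DNA was purified with phenol. Per the series design, it was then bisulphite-converted and read on a custom-made GoldenGate array. The 58 arrays each have 382 beta values (a fraction, unit 0 to 1) as deposited by the authors. Not given in the sources used here are the genome build, the scanner software and any normalization or background step, so the CpGs have no coordinates. Gene names were matched to RefSeq (GRCm38.p6), 362 by symbol and 20 by synonym, which gave 17 X-linked CpGs.

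Groups followed the tissue and genotype labels. CPU M4_a and M4_b (correlation 0.987) were averaged into 1 sample. Beta was limited to 0.01 to 0.99 and turned into log2(beta / (1 - beta)). These values were fitted in R 4.3.3 with limma 3.58.1, with a mean per region over 53 samples, moderated variances and Benjamini-Hochberg adjustment over the 382 CpGs within each contrast. Tests were two-sided, with calls at an adjusted p under 0.05. F-coded and M-coded BLA samples were compared in a fit with a mean per region and letter. The fit was tested on simulated data. Tables and plots were made in Python 3.11.15 with matplotlib 3.10.9, pandas 2.3.3 and numpy 2.4.6.

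Named CpGs were those called against the 10 regions, up to 4 per single region and per gene list by the widest difference in beta, and the 8 widest for the letters. Some CpGs that the rule names are not reported here. Others were named after their values were seen. The comparison, gene lists and names were chosen with earlier results of these data known. Promoters were taken from genes with a single start in the table, none from chromosome 18. Alternatives were quantile normalization, median centring, untransformed beta, limits of 0.05 and 0.95, filters on CpGs, robust variances, the replicate code as a block, the letter as a covariate, either CPU M4 array, other sets of regions and leaving out each sample. Leaving out FC_WT, DG F7 to F9, PC F2 and M3, or PC, GCL, FC_WT and DG F7 to F9 together was chosen after the data were seen.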

Additional observations from a re-analysis of the deposited data

Results flagged for a closer look

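Among 86 named autosomal CpGs, 1 BLA sample stood far from the other 4 at 5, which is near the share of about 1 in 20 that chance gives. Adora2a, an adenosine receptor, had 0.245 in M1 and 0.0505 to 0.0636 in the others. Gabrr1 had 0.534 in M4 and 0.723 to 0.784 in the others. F4 was the low sample at Hrh4, a histamine receptor (0.738 against 0.791 to 0.807), Adra1b, an adrenergic receptor (0.865 against 0.898 to 0.911), and Lep (0.960 against 0.967 to 0.970). Of these CpGs, that of Lep was called against the 10 regions.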

How the results depend on the processing

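The 26 calls against the 10 regions became 7 without PC and GCL, and 10 with a difference of at least 0.1 in beta. They became 5, with 4 higher and Crhr2 lower, without PC, GCL, FC_WT and DG F7 to F9. When 1 sample was left out, the count lay between 13 and 31. The limit of 0.1 in beta, which Grm2, Oprk1, Chd7 and Col11a2 did not reach, is not among the 18 other settings counted per CpG. F2r, Grm2 and Oprk1 were called in all of those 18 and Chd7 in all but quantile normalization. All 18 fits shared 1 spread over the regions, so they do not test the wider spread of BLA at Oprk1. Among the 18, the CpGs of Grin2c and Col11a2 were lost only without PC, GCL, FC_WT and DG F7 to F9. With the replicate code as a block and without FC_WT, 24 were called, 19 of them shared, against 27 without FC_WT and no block. The codes were not taken to pair the samples, because the labels do not say what they mark. The deviations of BLA samples correlated above 0.1 with those of the same code elsewhere in 14 of 33 pairs (-0.47 to 0.51, median 0.092). With other codes they did so in 75 of 207 pairs (median -0.0024). Pairing need not lift every pair above 0.1, so these values cannot tell whether the codes mark animals. No block fit was possible for the letters, which hold the codes within them. The replicate block gave 10 calls against HYP. In DG it absorbs M2 and F7 to F9, codes found in no other region, so that comparison rests on DG F3 alone and its count is not given. Against single regions, the counts were 17 for CPU and 5 for GP on untransformed beta; 5 for CPU, 2 for GP, 10 for HYP and 0 for SN with quantile normalization; and 2 for CPU and 1 for TH with centring. They were 1 for TH with robust variances, with the letter as covariate, without FC_WT or with CPU M4_a alone, 11 for DG and 1 for SN and for TH without DG F7 to F9, and 53 for PC and 7 for GP without PC F2 and M3. Leaving out 1 sample gave 14 to 25 for CA3, 0 to 14 for CPU, 54 to 103 for DG, 48 to 104 for FC_WT, 0 to 3 for GP, 2 to 7 for HYP, 49 to 148 for PC, 1 to 2 for SN and 1 to 3 for TH. Without X-linked CpGs the letters gave 0 calls, since all 12 were X-linked. No named difference that was called changed sign in these settings. Except where fewer samples or CpGs entered, the cause of these changes was not tested. Depth is unknown, since bead numbers and signal over background were not used here.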
